A study of Mus musculus with 30 samples.

Results

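The transcriptomes of liver and of sWAT (commonly read as subcutaneous white adipose tissue) were compared in C57BL/6N mice on HFD, the usual abbreviation of a high-fat diet. The members are the 10 libraries, of 30 in the series, that the labels assign to HFD without imeglimin in these 2 tissues: 5 of liver and 5 of sWAT, numbered 75, 76, 79, 80 and 83 in each. The remaining libraries, from brown fat and from mice given the glucose-lowering drug imeglimin, were not used. Every library of both groups therefore came from the same strain and diet, no group on another diet enters, and the values describe the tissues in mice fed this way. The design text of the series states 4 per group, whereas 5 are labelled and used here. Whether each library derives from its own mouse is not stated, so the p-values rest on library-to-library spread, part of which may be technical.

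As background, liver and white fat divide the handling of fuel between them. Hepatocytes release glucose, lipoproteins and most plasma proteins, make bile acids, urea and ketone bodies, and clear drugs. White adipocytes take up fatty acids released from circulating lipoproteins, store them as triglyceride in a single large droplet, release them again under hormonal control, and secrete leptin and adiponectin. Both tissues synthesise fatty acids and respond to insulin, but often through different isozymes of the same reaction.

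Poly(A) RNA was measured in TPM (transcripts per 1000000 transcripts), which accounts for length and sums to the same value everywhere, so levels of different genes can be compared. TPM keeps no sequencing depth, which is unknown here. In the text, values are given for libraries 75, 76, 79, 80 and 83 in that order, or as the mean ± SD of the 5 libraries of a tissue. The liver transcriptome was concentrated in few genes: 63.4 ± 3.36 genes held 50% of the non-mitochondrial TPM in liver, against 328 ± 41.7 in sWAT. Genes of the plasma protein, apolipoprotein, complement and acute phase lists held 21.6 ± 1.14% of all TPM in liver and 2.69 ± 0.186% in sWAT. Fewer genes reached 1 TPM in liver (11553 ± 109) than in sWAT (13698 ± 157). Each of these 3 measures had non-overlapping groups. For the number of genes holding 50% and the number reaching 1 TPM, the exact two-sided permutation p was 0.00794 each. That is the smallest that 5 against 5 allows. The lists behind the plasma protein share hold products known to come from liver and were chosen with earlier results of these data known. A higher share in liver was therefore built into that choice, so its values are a description and no p is given. Because TPM values are shares, each depends on how much all other genes hold. The median tested gene stood at a log2 difference, liver minus sWAT, of -1.04, which is 2.06-fold higher in sWAT. With libraries scaled by the median ratio across genes instead, the median difference was -0.02.

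Differences were therefore read on both scales. A moderated linear model (limma) was fitted to log2(TPM + 1) of the 13751 genes that reached 1 TPM in 5 or more of the 10 libraries, with Benjamini-Hochberg adjustment at 0.05. The same model was fitted after median-ratio scaling. On the TPM scale 2078 genes (15.1%) had an adjusted p under 0.05 and were higher in liver and 10490 (76.3%) were higher in sWAT. On the median-ratio scale the split was 5449 (39.6%) against 5672 (41.2%), and 2320 genes were called higher in sWAT on the first scale and higher in liver on the second. Below, a gene is called higher in a tissue where limma's test against a 2-fold threshold passed in that direction on both scales. That held for 1272 genes in liver (9.25% of those tested) and 2519 in sWAT (18.3%). These 2 percentages are the background for each list count below. This rule was chosen after the scales were seen to disagree. Among the genes named below that met it, the highest adjusted p of that test was 0.0119 on the TPM scale and 0.0394 on the median-ratio scale. A fold change on the log2(TPM + 1) scale understates the difference of genes with low TPM. In bulk tissue, fewer cells of a type and less RNA per cell cannot be told apart.

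The tissue labels held against defining markers. Each of 10 hepatocyte genes, among them Alb (albumin) and Hnf4a, was higher in all 5 liver libraries than in any sWAT library, and each of 10 adipocyte genes was higher in all 5 sWAT libraries. Traces of hepatocyte transcripts differed between sWAT libraries. Apoa2, an apolipoprotein of high-density lipoprotein, read 23345, 21954, 23375, 22553 and 22478 TPM in liver and 0.453, 49.8, 50.7, 6.198 and 63.9 TPM in sWAT. Libraries 76, 79 and 83 of sWAT stood above 75 and 80. The median of the 9 hepatocyte genes other than Cyp2e1, as a percentage of their liver level, was 0.00199% in library 75, 0.0236% in 80 and 0.1104%, 0.129% and 0.149% in 76, 79 and 83. The sWAT levels of liver genes given below include these traces. With those 3 sWAT libraries left out, a choice made after seeing the data, 1216 genes were over 2-fold higher in liver and 2359 in sWAT on both scales, against 1272 and 2519 with all 10 (on the TPM scale alone 41.4% of tested genes were over 2-fold higher in sWAT), and no list count below moved by more than 4 genes. Cyp2e1, an ethanol-metabolising cytochrome P450, did not follow that order in sWAT, where it read 989, 324, 401, 828 and 450.2 TPM, between 4.16% and 12.7% of its liver mean. In the other direction, Adipoq was listed at 0 in 4 liver libraries.

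**Figure D1:**
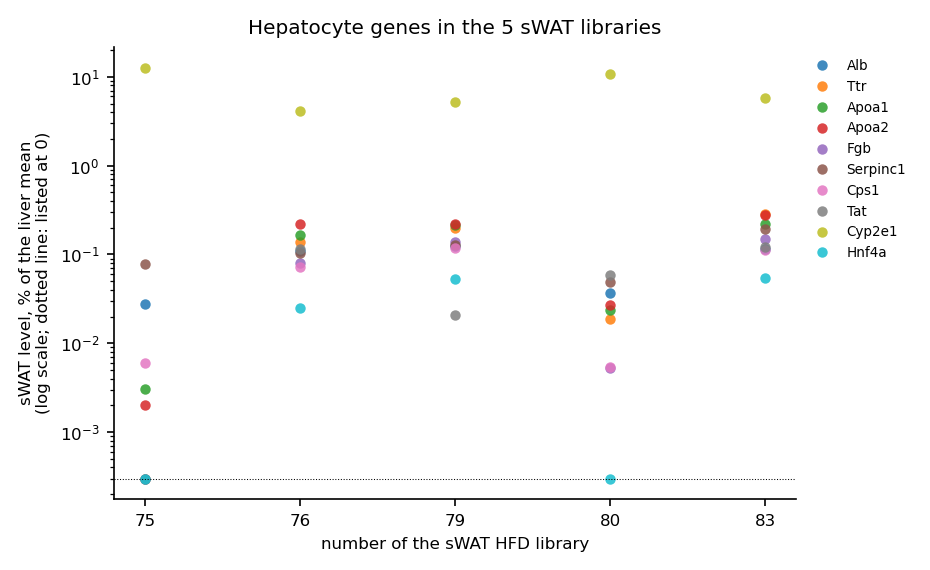
Level of 10 hepatocyte genes in each sWAT library as a percentage of the gene's liver mean, on a log axis, with points on the dotted line listed at 0. Most genes sit higher in libraries 76, 79 and 83 than in 75 and 80, whereas Cyp2e1 lies between 4.16% and 12.7% in all 5.

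The largest differences towards liver were secreted proteins and metabolic enzymes of hepatocytes. The 15 genes with the largest differences included Mup20, Fabp1, Serpina1c, Alb, Gc, Fga, Ahsg, Fgg, Apoa2, Apoa1, Mup3, Serpina3k, Mat1a and Ttr, with log2 differences from 10.26 to 11.42. Mup20 encodes a major urinary protein, a pheromone carrier that mouse liver releases for excretion. It read 19058, 14746, 15201, 13004 and 11651 TPM in liver and 0.787, 8.88, 14.9, 0.956 and 6.600 TPM in sWAT. The Mup, Serpina1 and Serpina3 genes have near-identical copies, so their single values are uncertain. Alb (GRCm39 chromosome 5, 90608756 to 90624461, plus strand), the main protein of plasma, read 51980.4, 57884, 45846, 62782 and 63707 TPM in liver and 15.5, 62.3, 70.2, 20.9 and 65.7 TPM in sWAT. The log2 difference of Alb was 10.43 (SE 0.38). Fabp1 (GRCm39 chromosome 6, 71176811 to 71182007, plus strand), the fatty acid binding protein of liver, read 13367, 14626, 13482, 16806 and 16089 TPM in liver and 0, 14.1, 18.6, 3.21 and 19.5 TPM in sWAT, a log2 difference of 10.93 (SE 0.69).

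Towards sWAT, the largest differences were adipocyte hormones and droplet proteins. The 15 genes were Lep, Adipoq, Sncg, Fabp4, Plin1, Aoc3, Nnat, Lpl, Retn, Cav1, Rgcc, Ifi27l2a, Prkar2b, Sfrp5 and Slc1a5, with log2 differences from -12.34 to -9.48. Lep (GRCm39 chromosome 6, 29060219 to 29073876, plus strand), the satiety hormone leptin, read 0, 0, 0, 0.0962 and 0 TPM in liver and 5684, 5385, 5056, 6149 and 4351 TPM in sWAT. Its log2 difference was -12.34 (SE 0.09). Adipoq (GRCm39 chromosome 16, 22965286 to 22976778, plus strand), the hormone adiponectin, read 0.832, 0, 0, 0 and 0 TPM in liver and 5969, 5192, 5975, 5449 and 6391 TPM in sWAT. The log2 difference was -12.32 (SE 0.16). Lep and Adipoq entered the test only through sWAT, and the genes named here in either direction were picked as the largest differences, so no p is given for any of them. Fabp4 (GRCm39 chromosome 3, 10269148 to 10273636, minus strand), the adipocyte counterpart of Fabp1, read 5.21, 5.69, 4.58, 4.71 and 6.71 TPM in liver and 8480.5, 7922, 8549, 8418 and 9053 TPM in sWAT. In all 3 genes the groups did not overlap, nor did they in 11643 (84.7%) of the tested genes. Rgcc, a regulator of the cell cycle, was listed at 0 in all 5 liver libraries and read 939, 1023, 911, 852 and 818 TPM in sWAT.

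**Figure D2:**
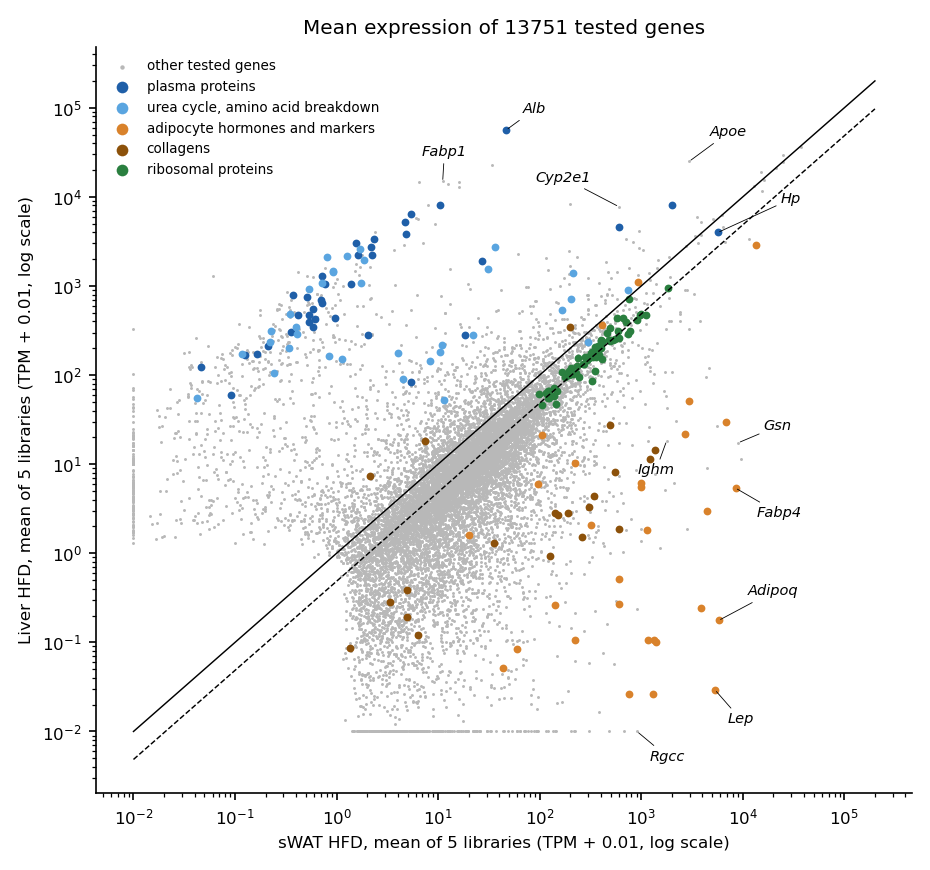
Mean TPM of each of the 13751 tested genes in sWAT (x axis) and in liver (y axis), both with 0.01 added and on log axes, with 5 gene lists coloured. The solid line marks equal TPM and the dashed line the median gene at 2.06-fold higher in sWAT; plasma proteins and amino acid enzymes lie to the upper left, adipocyte genes and collagens to the lower right, and ribosomal proteins along the dashed line.

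Promoter sequences are shown for the 2 genes with the largest difference in each direction that had a window in the RefSeq table used here (GRCm38.p6), to show what lies before the starts of genes so unequal between the tissues. Each run covers the 150 bases before the annotated start, 5′ to 3′ on the gene's strand, and capitals mark matches, on either strand, to 5 searched motifs. The motifs are the TATA box with the letters TATAAA, the CCAAT box, part of the site of the liver factors HNF1 (GTTAAT), the core of many HNF4 sites (CAAAGTC) and a sequence bound by many nuclear receptors (AGGTCA). The windows are chr6:71199729-71199878, plus strand for Fabp1, chr12:103904951-103905100, minus strand for Serpina1c, an alpha-1 antitrypsin gene, chr6:29060071-29060220, plus strand for Lep and chr16:23146386-23146535, plus strand for Adipoq.
Fabp1: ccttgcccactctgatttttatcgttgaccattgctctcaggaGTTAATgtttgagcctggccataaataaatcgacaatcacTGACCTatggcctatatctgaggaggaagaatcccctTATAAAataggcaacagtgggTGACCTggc
Serpina1c: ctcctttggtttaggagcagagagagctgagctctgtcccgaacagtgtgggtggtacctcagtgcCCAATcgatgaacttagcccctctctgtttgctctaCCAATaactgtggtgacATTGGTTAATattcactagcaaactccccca
Lep: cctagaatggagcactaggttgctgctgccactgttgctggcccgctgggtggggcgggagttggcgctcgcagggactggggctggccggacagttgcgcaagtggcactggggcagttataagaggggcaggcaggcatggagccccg
Adipoq: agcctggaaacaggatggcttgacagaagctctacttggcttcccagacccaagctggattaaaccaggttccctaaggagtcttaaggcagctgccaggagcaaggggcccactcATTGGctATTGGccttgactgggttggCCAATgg
The Fabp1 window held the TATA box, the HNF1 letters (GTTAAT) and the nuclear receptor letters (AGGTCA) on the reverse strand at 2 places. The Serpina1c window held CCAAT at 3 places, 1 of them overlapping GTTAAT, the Adipoq window held CCAAT at 3 places, and the Lep window held no searched motif. Over the 250 bases before the start, GTTAAT was in 10.3% of the 926 windows of genes higher in liver, in 3.24% of the 1853 windows of genes higher in sWAT and in 4.08% of the 10427 windows of tested genes. Among the 100 genes with the largest difference towards liver, 21 held GTTAAT, against 4 of the 100 towards sWAT. CAAAGTC was in 6.80% of the liver windows and 3.29% of the sWAT windows, against 3.56% of all. AGGTCA was in 18.7% and 10.4%, against 11.04%. TATAAA was in 13.1% and 8.58%, against 6.90%, and CCAAT in 40.0% and 32.6%, against 36.5%. Base composition also differed: the median GC content was 54% in the liver windows, 60% in the sWAT windows and 59.6% in all. Among the 100 largest differences, it was 47.2% towards liver and 58.2% towards sWAT. The part of composition in these counts was not tested. A match is a run of letters and not a shown binding site.

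Of 44 gene lists, those of liver functions and those of adipose functions separated in opposite directions. Many list members averaged under 1 TPM in 1 tissue, so they passed the filter only through the tissue where they were high and had to differ. The counts below are descriptions for that reason, and where a list had members so low their number is given.

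**Figure D3:**
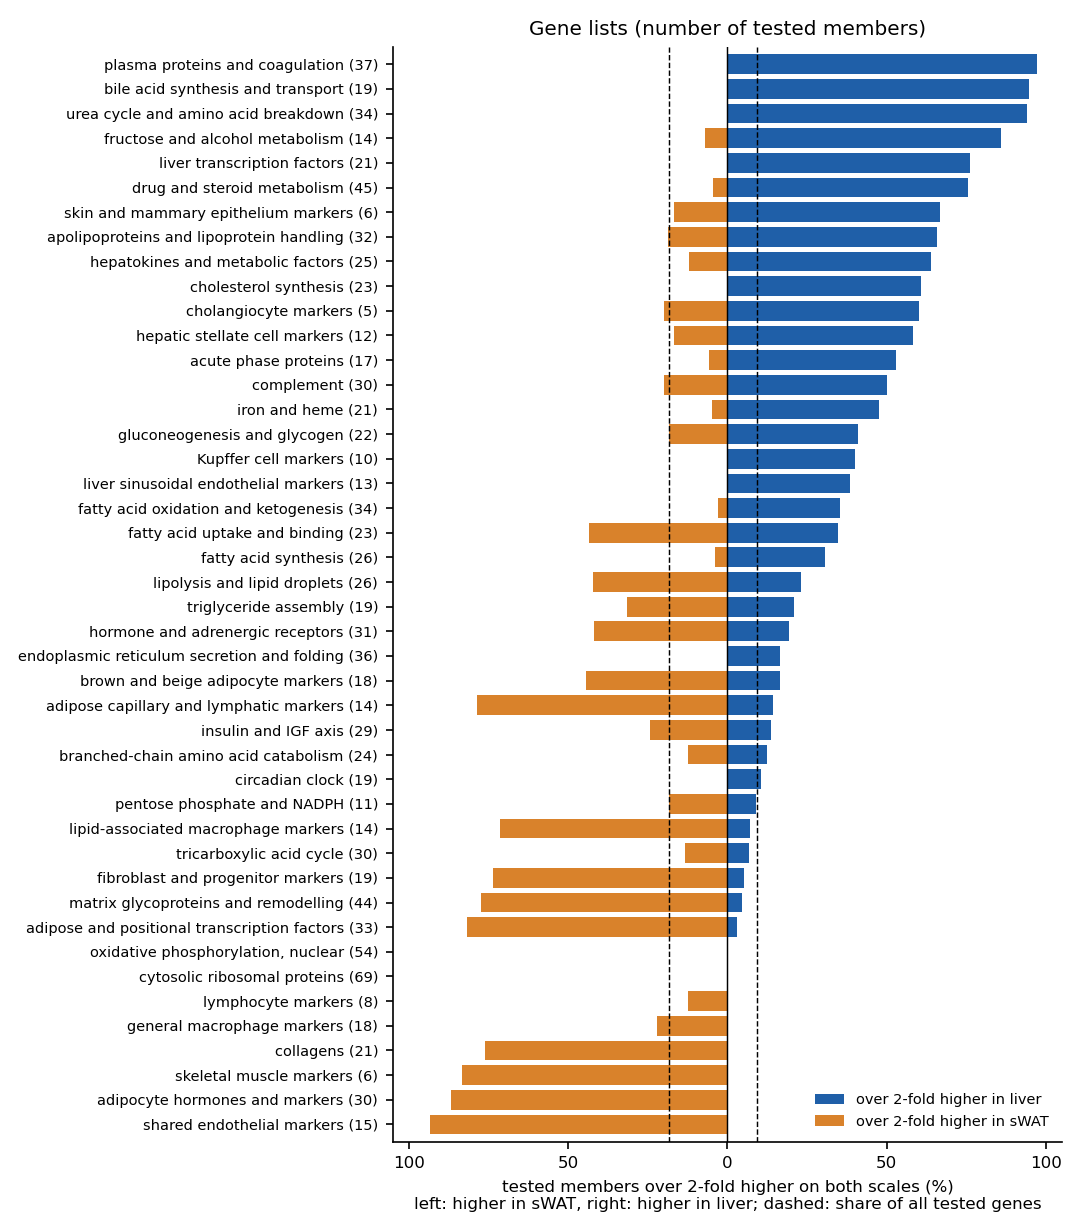
Percentage of tested members of each of 44 gene lists that were over 2-fold higher in liver (blue, to the right) or in sWAT (orange, to the left) on both scales, with the number tested in parentheses. The dashed lines mark the shares among all tested genes, 9.25% in liver and 18.3% in sWAT; 36 of 37 plasma proteins point to liver, 26 of 30 adipocyte genes point to sWAT, and no nuclear respiratory chain or ribosomal protein gene passed in either direction.

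Plasma proteins were the most one-sided liver list. Of 37 tested members, 36 were higher in liver and none in sWAT, with 19 under 1 TPM in sWAT. Gc, the vitamin D binding protein, measured 6442 ± 183 against 5.34 ± 4.31 TPM. Fga and Fgg, chains of fibrinogen, measured 3021 ± 849 against 1.53 ± 1.45 TPM and 3400.1 ± 959 against 2.34 ± 2.39 TPM. Ahsg, fetuin-A, a carrier protein that inhibits the insulin receptor, measured 5192 ± 403 against 4.65 ± 4.22 TPM. Hp, haptoglobin, which binds free haemoglobin, was the exception and read 3207, 3084, 4397, 3871 and 5364 TPM in liver and 4658, 6379, 5577, 4610.4 and 7154 TPM in sWAT. Its log2 difference of -0.52 lay 0.52 above the median gene and was 0.66 on the median-ratio scale, so its direction depended on the scaling.

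Acute phase genes were mostly higher in liver or passed in neither direction, and many complement genes were higher in liver. Of 17 acute phase genes, 9 were higher in liver and 1 in sWAT, with 6 members under 1 TPM in sWAT. Those higher in liver included the iron hormone Hamp (1343 ± 570.05 against 1.64 ± 1.96 TPM), the serum amyloid Saa4 (375 ± 117 against 0.224 ± 0.224 TPM), Crp (272 ± 19.97 against 0.161 ± 0.171 TPM) and Apcs (149.7 ± 31.2 against 0.187 ± 0.2998 TPM), both pentraxins. The 1 in sWAT was Lbp, which carries bacterial lipopolysaccharide, at 42.3 ± 12.2 against 307 ± 27.95 TPM. Orm1, an orosomucoid, stood at 1118 ± 174 against 919 ± 108 TPM, and Serpina3n, a protease inhibitor, at 509 ± 165 against 880.2 ± 111 TPM, and neither passed. Of 30 complement genes, 15 were higher in liver, including the lectin Mbl2 (651 ± 47.2 against 0.566 ± 0.815 TPM), the inhibitor Cfi (507 ± 34.6 against 0.812 ± 0.614 TPM) and C8a and C9 of the membrane attack complex (351 ± 40.5 against 0.235 ± 0.185 TPM and 325 ± 25.4 against 0.217 ± 0.257 TPM). The list had 8 members under 1 TPM in sWAT and 2 in liver. The 6 that were higher in sWAT (20%, near the share of all genes, and 4 without sWAT libraries 76, 79 and 83) included Cfd, or adipsin, the protease that starts the alternative pathway. Cfd read 79.6, 26.8, 55.2, 62.7 and 29.5 TPM in liver and 4234, 2869.97, 2843, 2462 and 2315 TPM in sWAT, a log2 difference of -5.92 (SE 0.28). C5ar1, the receptor of the C5a fragment, was also higher in sWAT (0.995 ± 0.377 against 22.1 ± 9.41 TPM), as were C7 (0.769 ± 0.443 against 17.5 ± 7.61 TPM) and Cd55 (3.64 ± 0.989 against 40.3 ± 3.12 TPM), a complement inhibitor on cell surfaces.

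Lipoprotein genes were mostly higher in liver. Of 32 tested, 21 were higher in liver and 6 in sWAT (18.8%, near the share of all genes), with 9 under 1 TPM in sWAT. Apob, the scaffold of very-low-density lipoprotein, measured 860.4 ± 66.4 against 0.314 ± 0.316 TPM. Apoa4 and Apoa5, which act in triglyceride-rich particles, measured 1294 ± 495 against 0.0508 ± 0.0697 TPM and 1205 ± 253 against 0.992 ± 0.762 TPM. Lpl (GRCm39 chromosome 8, 69333143 to 69360100, plus strand), the lipase that frees fatty acids from lipoproteins, read 4.205, 3.74, 1.56, 2.26 and 3.26 TPM in liver and 4690.03, 4438, 4305, 4631 and 4223 TPM in sWAT. Its log2 difference was -10.17 (SE 0.16). Of the 3 extracellular triglyceride lipases, Lpl held 99.9 ± 0.0132% of the summed TPM in sWAT, whereas Lipc, hepatic lipase, held 91.3 ± 1.48% in liver and measured 146 ± 12.2 against 0.2598 ± 0.223 TPM. Gpihbp1, which anchors Lpl on capillaries, measured 12.1 ± 1.63 against 271 ± 30.1 TPM, and Vldlr, a receptor for triglyceride-rich lipoprotein, 1.36 ± 0.465 against 72.98 ± 4.598 TPM. Angptl4, an inhibitor of Lpl, was also higher in sWAT (82.03 ± 27.98 against 744 ± 123 TPM), as was the phospholipid transfer protein Pltp (44.3 ± 21.9 against 678 ± 61.1 TPM).

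Nearly all bile acid and amino acid genes and most detoxification genes were higher in liver. In the bile acid list 18 of 19 were higher in liver, with 12 under 1 TPM in sWAT. Cyp8b1, which sets the cholic acid share, measured 541 ± 103 against 0.2503 ± 0.367 TPM. Slc10a1 and Slco1b2, the uptake carriers of the basolateral side, measured 539 ± 32.5 against 0.3400 ± 0.325 TPM and 619.8 ± 72.8 against 0.258 ± 0.222 TPM, and Abcb11, the export pump, 318 ± 62.02 against 0.2304 ± 0.215 TPM. In the urea and amino acid list 32 of 34 were higher in liver, with 15 under 1 TPM in sWAT. Cps1 (GRCm39 chromosome 1, 67162185 to 67270418, plus strand), which starts the urea cycle, read 1236, 1683, 1776, 1224 and 1389 TPM in liver and 0.0877, 1.04, 1.72, 0.0799 and 1.63 TPM in sWAT. Mat1a, Bhmt and Gnmt of methionine metabolism measured 2128 ± 162 against 0.802 ± 0.5899 TPM, 2149.6 ± 418 against 1.25 ± 1.45 TPM and 2631 ± 378 against 1.68 ± 1.33 TPM, and the tyrosine enzymes Tat and Hpd 1431 ± 567 against 0.905 ± 0.784 TPM and 1978 ± 239.95 against 1.87 ± 1.17 TPM. Gpt, alanine aminotransferase, did not pass, at 235 ± 37.1 against 299.8 ± 25.1 TPM. Of 45 genes of drug and steroid metabolism, 34 were higher in liver and 2, Cyp4b1 (10.2 ± 1.59 against 184 ± 10.7 TPM) and Cyp1b1 (0.348 ± 0.0653 against 9.12 ± 4.04 TPM), in sWAT, with 19 under 1 TPM in sWAT and 1 in liver. Cyp2d26, Cyp2j5 and Ugt2b5 measured 1079.8 ± 23.96 against 0.798 ± 0.898 TPM, 688 ± 31.7 against 0.342 ± 0.325 TPM and 797 ± 159 against 0.699 ± 0.732 TPM, and single values of such cytochrome and glucuronosyltransferase families are uncertain because members share sequence.

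Most branched-chain amino acid genes passed in neither direction. Of 24 tested, 3 were higher in liver and 3 in sWAT, with 1 under 1 TPM in liver. Each count was 12.5% of the list, against 9.25% of all tested genes for liver and 18.3% for sWAT. Bcat1, a cytosolic aminotransferase of the first step, was listed at 0 in all 5 liver libraries and read 15.8, 21.5, 28.4, 16.5 and 28.5 TPM in sWAT. Bcat2, the mitochondrial enzyme of the same step, read 10.02, 9.99, 12.3, 9.64 and 10.7 TPM in liver and 101, 89.9, 95.5, 86.6 and 95.8 TPM in sWAT, a log2 difference of -3.04 (SE 0.08). Bckdk, the kinase that switches off the next step, was also higher in sWAT (6.01 ± 0.429 against 44.9 ± 2.33 TPM), whereas Ppm1k, the phosphatase that switches it on, was higher in liver (35.8 ± 7.48 against 4.45 ± 0.451 TPM). So was Hsd17b10 of isoleucine breakdown (339 ± 41.6 against 132 ± 1.64 TPM).

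Several steps of glucose metabolism were led by different isozymes in the 2 tissues, and others by the same one. The share of a protein family's summed TPM held by each member does not depend on the scaling. In 26 of 42 families a different member led in each tissue by mean share. In 36 of the 42, the leading members held their place in all 5 libraries of each tissue. Some family totals were low in sWAT, such as 1.81 ± 0.803 TPM for the iodothyronine deiodinases. Of 111 tested shares 104 differed, with exact permutation p adjusted over the 111 between 0.00864, the lowest reached, and 0.0339. The families were chosen with earlier results of these data known, and shares within a family are not independent. These counts and p-values are therefore descriptions. For comparison, the groups did not overlap in TPM in 84.7% of all tested genes. Among hexose transporters, Slc2a2, the low-affinity carrier of hepatocytes, held 79.8 ± 1.62% of the family in liver and 0.0548 ± 0.05202% in sWAT. Slc2a4, the insulin-responsive carrier, held 0.146 ± 0.0729% in liver and 69.7 ± 2.202% in sWAT. Slc2a4 read 0.386, 0.392, 0.207, 0.0928 and 0.179 TPM in liver and 167, 149.6, 135, 133 and 130.2 TPM in sWAT. The totals of the family were close on the TPM scale, 169 ± 13.1 TPM in liver and 205 ± 22.9 TPM in sWAT. Unlike the shares, these totals depend on the scaling. Among hexokinases, Hk2, an insulin-regulated form, held 75.7 ± 3.16% in sWAT. Pklr, the liver pyruvate kinase, held 95.9 ± 1.01% in liver, and Pkm held 99.96 ± 0.0519% in sWAT. Aldoa held 99.8 ± 0.121% of the aldolases in sWAT. The same member led in both tissues among phosphofructokinases (Pfkl, 55.9 ± 3.17% in liver and 54.6 ± 6.49% in sWAT), enolases (Eno1, 98.1 ± 0.3199% and 96.6 ± 0.347%) and lactate dehydrogenases (Ldha, 99.6 ± 0.101% and 87.5 ± 2.41%). The bifunctional regulators of fructose 2,6-bisphosphate were led by Pfkfb1 in liver (64.2 ± 4.83%) and by Pfkfb3 in sWAT (87.7 ± 2.66%).

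Glycogen enzymes also had different leading members. Gys2 held 98.9 ± 0.315% of glycogen synthase in liver. In sWAT Gys1, the muscle form, led with 60.1 ± 6.96% and Gys2 held 39.9 ± 6.96%. Pygl held 98.8 ± 0.215% of glycogen phosphorylase in liver and Pygb 69.5 ± 2.14% in sWAT. G6pc, glucose 6-phosphatase, which lets glucose leave the cell, read 476, 419.7, 222, 354 and 67.9 TPM in liver and 0.605, 0.923, 0.297, 0.827 and 0.304 TPM in sWAT. Fbp1, a gluconeogenic phosphatase, measured 1289 ± 86.7 against 0.506 ± 0.561 TPM. Of the 22 gluconeogenesis and glycogen genes tested, 9 were higher in liver, with 4 members under 1 TPM in sWAT and 1 in liver. Those higher in sWAT were 4, Gys1, Pygb, Gyg and Pck2 (18.2%, near the share of all genes). Pck1, the cytosolic carboxykinase of gluconeogenesis and glyceroneogenesis, named here after its values were seen, read 1381, 2037, 1161, 1330.5 and 1330.3 TPM in liver and 488, 456, 508, 313 and 593 TPM in sWAT. The groups did not overlap, with a log2 difference of 1.62 (SE 0.17). Of 14 fructose and alcohol genes 12 were higher in liver and 1 in sWAT, with 4 under 1 TPM in sWAT and 1 in liver. Those higher in liver included Khk, ketohexokinase (499 ± 50.2 against 11.7 ± 1.91 TPM), and Adh4 (195 ± 30.1 against 0.575 ± 0.4602 TPM). The 1 in sWAT was Akr1b3, the aldose reductase that forms sorbitol (1.49 ± 0.237 against 55.3 ± 3.98 TPM).

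**Figure D4:**
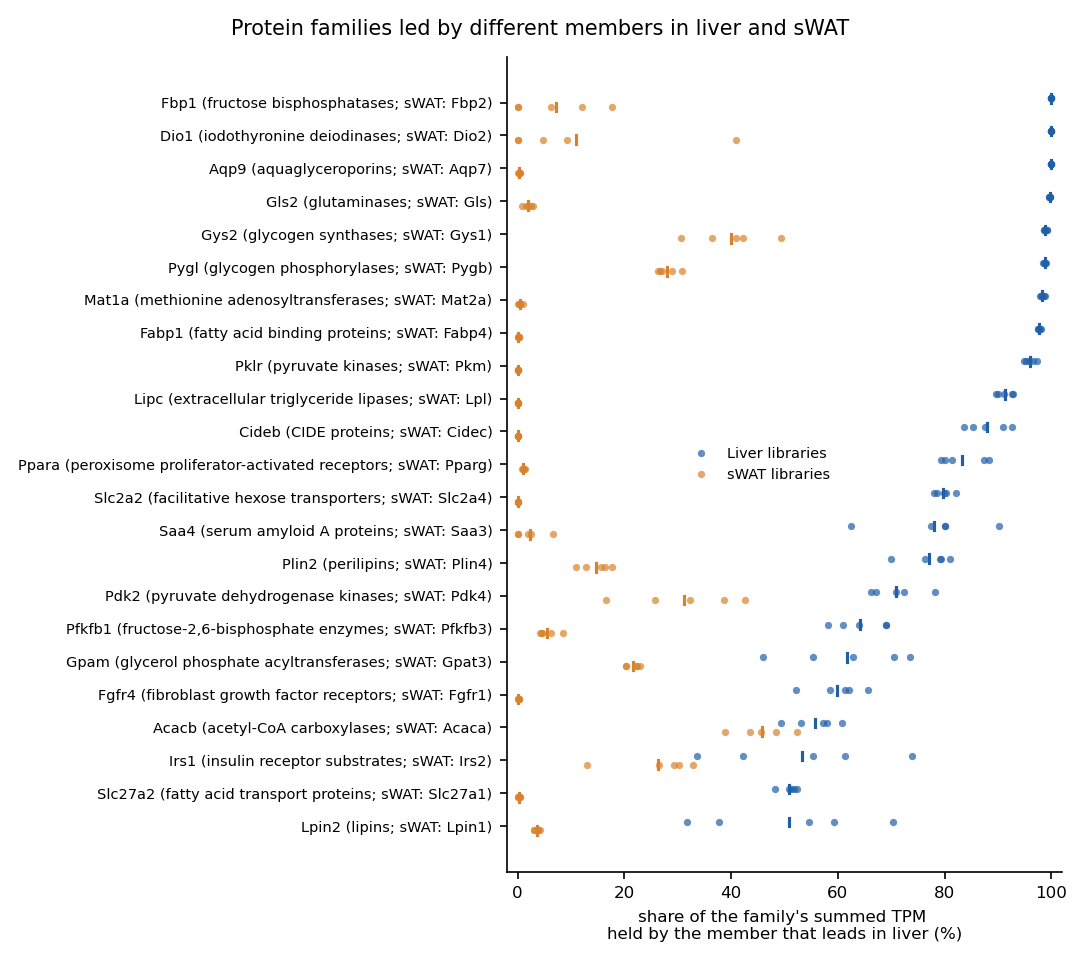
Share of a protein family's summed TPM (x axis, %) held by the member that leads in liver, in each liver library (blue) and each sWAT library (orange), for 23 of the 26 families led by different members, with bars at the means. Mean shares run from 50.8% (Lpin2) to 99.98% (Fbp1) in liver and from 0.00597% (Lipc) to 45.7% (Acacb) in sWAT. The shares of Acacb and Irs1 come closest between the tissues.

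Of 11 pentose phosphate and NADPH genes tested, 2 were higher in sWAT (18.2%) and 1 in liver (9.09%), both near the shares of all genes. G6pdx, glucose 6-phosphate dehydrogenase, which commits glucose to NADPH production, read 3.17, 2.47, 2.01, 3.82 and 2.87 TPM in liver and 322, 308, 288, 336 and 318 TPM in sWAT. It had a log2 difference of -6.37 (SE 0.11), with a limma adjusted p of 4.70e-14. G6pdx was named for its large difference within the list, so that p is a description. Pgd, the next NADPH-producing enzyme, measured 17.4 ± 2.45 against 228 ± 19.05 TPM. Nnt, a mitochondrial transhydrogenase, was the 1 higher in liver (18.9 ± 1.53 against 2.85 ± 1.86 TPM), and its symbol is carried by 2 identifiers. Me1, cytosolic malic enzyme, stood at 158 ± 36.2 against 746 ± 83.6 TPM, a log2 difference of -2.26 or -1.22 relative to the median gene, and did not pass 2-fold on both scales.

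Most fatty acid synthesis genes passed in neither direction, and several of elongation and desaturation were higher in liver. Of 26 genes, 8 were higher in liver and 1 in sWAT, with 1 under 1 TPM in sWAT. Scd1, the main stearoyl desaturase, was abundant in both tissues and read 1714, 5329, 1323, 4916 and 3743 TPM in liver and 10167, 13421, 10812, 8143 and 14702 TPM in sWAT. Its log2 difference was -1.93, or -0.88 relative to the median gene. Scd2, a second desaturase, was higher in sWAT (1.802 ± 0.703 against 378 ± 76.3 TPM). Elovl2, Fads1 and Fads2, which build long polyunsaturated fatty acids, were higher in liver, at 466 ± 66.2 against 0.165 ± 0.104 TPM, 371 ± 61.2 against 16.5 ± 3.29 TPM and 777 ± 138 against 10.6 ± 2.39 TPM, as were the elongases Elovl3 (373 ± 114 against 3.25 ± 2.65 TPM) and Elovl5 (677 ± 198 against 92.4 ± 12.1 TPM). Fasn, fatty acid synthase, named after its values were seen, read 116, 218, 87.7, 359 and 164 TPM in liver and 552, 492, 789.9, 862 and 1014 TPM in sWAT. The groups did not overlap, at a log2 difference of -2.09 or -1.05 relative to the median gene, and Fasn did not pass 2-fold on both scales.

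Fatty acid uptake and binding used different proteins in the tissues. Fabp1 held 97.7 ± 0.212% of the fatty acid binding proteins in liver and Fabp4 96.8 ± 0.542% in sWAT. Among transport proteins, Slc27a2 and Slc27a5 held 50.9 ± 1.59% and 47.5 ± 1.405% in liver, and Slc27a1 86.5 ± 2.27% in sWAT. Cd36, a fatty acid translocase, read 90.1, 94.01, 80.6, 89.5 and 116 TPM in liver and 4496, 4425, 4234, 4266 and 4125 TPM in sWAT, a log2 difference of -5.51 (SE 0.09). Cav1, the caveolin that forms membrane pits in adipocytes and endothelium, measured 1.88 ± 0.635 against 2794 ± 234 TPM. Of 23 genes in this list, 8 were higher in liver and 10 in sWAT, with 6 under 1 TPM in sWAT and 1 in liver.

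Triglyceride storage genes passed in both directions, and the leading droplet proteins differed. Of 26 lipolysis and droplet genes, 11 were higher in sWAT and 6 in liver, with 3 under 1 TPM in each tissue. Plin1, which guards the droplet of adipocytes, measured 0.0165 ± 0.0369 against 1315 ± 153 TPM. Plin4 held 56.002 ± 2.71% of the perilipins in sWAT and Plin2 77.1 ± 4.39% in liver. Cidec, which fuses droplets, held 99.6 ± 0.144% of its family in sWAT, and Cideb 88.03 ± 3.76% in liver. Cidec read 14.8, 25.3, 35.6, 19.999 and 52.9 TPM in liver and 6408, 6389, 6696, 6992 and 7765 TPM in sWAT. Pnpla2, the lipase of the first lipolytic step, led its family in both tissues. It read 36.03, 37.2, 53.8, 33.4 and 55.7 TPM in liver and 1709.6, 1676, 1998, 1606 and 1984 TPM in sWAT, a log2 difference of -5.37 (SE 0.14). Pnpla3, a related lipase, was higher in sWAT (0.998 ± 1.18 against 489 ± 106 TPM). Hsd17b13, a droplet protein of hepatocytes, was higher in liver (344 ± 43.7 against 0.127 ± 0.169 TPM), as was the carboxylesterase Ces3a (1775 ± 312 against 1.53 ± 0.976 TPM). Glycerol crosses the membrane through Aqp9 in liver, which held 99.9 ± 0.0533% of the aquaglyceroporins, and through Aqp7 in fat, which held 99.6 ± 0.204% in sWAT. Of 19 triglyceride assembly genes, 6 were higher in sWAT and 4 in liver, with 2 under 1 TPM in each tissue. Dgat2, the acyltransferase of the last step, read 388, 389, 470.2, 384 and 374 TPM in liver and 3993, 4227, 3126, 4107 and 3605 TPM in sWAT, and Dgat1 13.5, 13.4, 12.5, 11.04 and 13.01 TPM in liver and 195, 189, 179, 208 and 194 TPM in sWAT. Both were higher in sWAT, with log2 differences of -3.24 (SE 0.10) and -3.83 (SE 0.07). Gpam held 61.7 ± 11.3% of the glycerol phosphate acyltransferases in liver, where it led in 4 of 5 libraries, and Gpat3 46.4 ± 3.22% in sWAT. Among lipins, Lpin1 led in sWAT (83.4 ± 2.38%). In liver Lpin2 (50.8 ± 15.8%) led in 3 of 5 libraries and Lpin1 (46.97 ± 16.6%) in 79 and 83.

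Ketone bodies are made in liver and burned elsewhere, and a gene of each step is given here. Bdh1, which forms 3-hydroxybutyrate, measured 189 ± 6.06 against 0.122 ± 0.131 TPM. Oxct1, the transferase needed to use ketone bodies, read 2.28, 1.21, 1.83, 1.92 and 2.77 TPM in liver and 369, 376, 371, 376 and 387 TPM in sWAT. Its log2 difference was -7.00 (SE 0.12), with a limma adjusted p of 2.90e-14. Oxct1 was named for its large difference within its list, so that p is a description. Of the 34 genes of fatty acid oxidation and ketogenesis, 12 were higher in liver and Oxct1 alone in sWAT, with 3 under 1 TPM in sWAT and 1 in liver. Cyp4a14 and Cyp4a10, omega-hydroxylases with near copies, measured 491 ± 174 against 0.309 ± 0.287 TPM and 449.8 ± 106 against 0.337 ± 0.286 TPM. Acadl, a long-chain acyl-CoA dehydrogenase, did not pass, at 260.4 ± 12.1 against 577 ± 68.3 TPM, nor did Etfa, an electron carrier of beta-oxidation, at 392 ± 16.8 against 461 ± 44.2 TPM.

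Of 23 cholesterol synthesis genes, 14 were higher in liver and none in sWAT, with 1 under 1 TPM in sWAT. Msmo1 and Fdps measured 77.2 ± 17.9 against 14.9 ± 1.802 TPM and 189 ± 49.3 against 39.4 ± 8.89 TPM. Hmgcs1 (290.3 ± 102 against 411 ± 53.1 TPM) and Mvk (21.3 ± 2.37 against 47.04 ± 3.103 TPM), early enzymes, did not pass in either direction.

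The adipocyte list was the mirror of the plasma list, with 26 of 30 genes higher in sWAT and none in liver, and 14 members under 1 TPM in liver. Retn, the hormone resistin, measured 0.09704 ± 0.217 against 1178 ± 93.1 TPM. Sfrp5, a secreted Wnt antagonist, and Nnat, neuronatin, measured 0.0163 ± 0.0365 against 761 ± 172 TPM and 0.0969 ± 0.142 against 1333 ± 399 TPM. Apln, the peptide apelin, measured 0.0742 ± 0.0733 against 59.8 ± 16.6 TPM, and its receptor Aplnr 0.0104 ± 0.0232 against 81.4 ± 27.6 TPM. Liver-secreted metabolic factors lay on the other side, with 16 of 25 higher in liver and 3 in sWAT, and 8 under 1 TPM in sWAT. Lect2 and Fetub measured 337 ± 24.1 against 0.5702 ± 0.744 TPM and 346 ± 46.1 against 0.5796 ± 0.494 TPM, and Igfbp1, a binding protein of insulin-like growth factors, 99.7 ± 71.03 against 0.0582 ± 0.1301 TPM. Inhbb, an activin subunit, and Bmp6 were higher in sWAT, at 2.01 ± 0.428 against 65.5 ± 9.74 TPM and 2.24 ± 0.477 against 33.5 ± 8.05 TPM.

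Among receptors, 13 of 31 tested were higher in sWAT and 6 in liver, with 10 under 1 TPM in liver and 2 in sWAT. Gcgr, the glucagon receptor, read 215, 223, 233, 234 and 221 TPM in liver and 1.86, 1.36, 1.82, 2.62 and 1.59 TPM in sWAT. Ffar2, a receptor for short-chain fatty acids, read 0, 0, 0, 0 and 0.0557 TPM in liver and 146, 161, 128, 150.4 and 146 TPM in sWAT. Neither pair of groups overlapped, and Gcgr was higher in liver and Ffar2 in sWAT. Npr3, which clears natriuretic peptides, measured 0.5004 ± 0.133 against 602 ± 68.9 TPM, and Ptger3, a prostaglandin E2 receptor that restrains lipolysis, 0.0452 ± 0.0866 against 68.4 ± 14.5 TPM. Tshr, the thyrotropin receptor, was listed at 0 in liver and measured 115 ± 11.2 TPM in sWAT. The fibroblast growth factor receptors were led by Fgfr4 in liver (59.9 ± 5.08%) and by Fgfr1 in sWAT (92.004 ± 1.18%). Adrb3, the beta-3 adrenergic receptor of adipocytes, read 8.23, 6.12, 7.37, 3.68 and 4.19 TPM in liver and 55.02, 62.7, 72.5, 80.5 and 211 TPM in sWAT, higher in sWAT and highest there in library 83. Dio1, a deiodinase that acts on thyroid hormone, was higher in liver (181 ± 18.6 against 0.1395 ± 0.185 TPM). In the insulin and growth factor list 4 of 29 were higher in liver (13.8%) and 7 in sWAT (24.1%), with 4 under 1 TPM in sWAT and 3 in liver. The shares of all tested genes were 9.25% for liver and 18.3% for sWAT. Igfbp2 measured 237 ± 28.9 against 0.702 ± 0.834 TPM, and Igfbp5 and Igfbp6 4.17 ± 2.42 against 293 ± 68.4 TPM and 2.101 ± 1.95 against 112 ± 40.8 TPM. Of 21 iron and heme genes 10 were higher in liver, including Hpx, the heme carrier hemopexin (3824 ± 584 against 4.78 ± 2.44 TPM), with 2 under 1 TPM in sWAT, and Hfe alone was higher in sWAT (29.2 ± 2.14 against 211 ± 10.6 TPM).

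Transcription factors known for each lineage differed as well. Of 21 liver factors, 16 were higher in liver and none in sWAT, with 13 under 1 TPM in sWAT. Hnf4a (GRCm39 chromosome 2, 163348728 to 163414830, plus strand), a nuclear receptor that maintains hepatocytes, read 317, 357, 474, 302 and 424 TPM in liver and 0, 0.0923, 0.198, 0 and 0.203 TPM in sWAT, a log2 difference of 8.40 (SE 0.13). Creb3l3, Nr1i3 and Nr1h4, the last of these the bile acid receptor, measured 245 ± 28.8 against 1.21 ± 0.4798 TPM, 136 ± 36.4 against 0.278 ± 0.157 TPM and 99.2 ± 18.8 against 0.667 ± 0.402 TPM. Of 33 adipose and positional factors, 27 were higher in sWAT and 1 in liver, with 25 under 1 TPM in liver and 1 in sWAT. Pparg, the master regulator of adipocyte differentiation, read 13.6, 8.05, 7.74, 11.04 and 10.9 TPM in liver and 226, 267, 213, 216 and 194 TPM in sWAT. Pparg held 91.99 ± 0.574% of the peroxisome proliferator-activated receptors in sWAT and Ppara, the fatty acid sensor of liver, 83.3 ± 4.24% in liver. Ebf1, a factor of fat cell development, measured 0.0217 ± 0.0156 against 44.9 ± 11.3 TPM. Tcf21 went the other way, listed at 0 in all 5 sWAT libraries and at 3.996, 2.16, 2.75, 5.36 and 3.24 TPM in liver. Cebpa was abundant in both tissues, at 406 ± 60.03 against 844 ± 107 TPM.

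Hox genes, which encode position along the body axis, were higher in sWAT where they passed. The family was looked up after the values of several members had been seen. The deposited values list 39 Hox genes, of which 26 were tested, and 21 were higher in sWAT and none in liver, against 18.3% and 9.25% of all tested genes. Of the 26, 25 averaged under 1 TPM in liver, so they passed the filter only through sWAT and had to differ in that direction. Hoxc8 (GRCm39 chromosome 15, 102899039 to 102902543, plus strand) was listed at 0 in all 5 liver libraries and read 89.1, 90.3, 78.96, 75.9 and 79.9 TPM in sWAT. Hoxc10 was likewise listed at 0 in liver and measured 43.1 ± 12.7 TPM in sWAT. The highest value of any Hox gene in any liver library was 2.45 TPM, for Hoxb4. Annotated spans of neighbouring Hox genes overlap, so single values within a cluster are uncertain.

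Most matrix genes were higher in sWAT. Of 21 collagen genes, 16 were higher in sWAT and none in liver, with 6 under 1 TPM in liver. Col15a1, a collagen of basement membranes, read 1.33, 2.52, 1.02, 3.101 and 1.32 TPM in liver and 585, 654, 544, 627 and 601 TPM in sWAT, a log2 difference of -7.77 (SE 0.17). Col4a1 and Col4a2, the network of the basement membrane that surrounds each adipocyte, measured 14.3 ± 3.66 against 1374 ± 76.4 TPM and 11.6 ± 1.87 against 1232 ± 63.5 TPM. Col1a1, of fibrillar collagen, measured 3.27 ± 1.42 against 306 ± 80.2 TPM. Col14a1 and Col18a1 stood at 17.999 ± 4.01 against 7.49 ± 3.07 TPM and 345 ± 11.5 against 197 ± 18.2 TPM and did not pass. Of 44 other matrix genes 34 were higher in sWAT, including Sparc (26.98 ± 4.898 against 5536 ± 336 TPM), Dpt (5.12 ± 1.31 against 1696 ± 266 TPM) and Lox, which cross-links collagen (0.272 ± 0.09602 against 176 ± 32.7 TPM), with 15 under 1 TPM in liver. The 2 that were higher in liver, Vtn (1923 ± 104 against 27.01 ± 2.53 TPM) and Fn1 (310.3 ± 25.1 against 62.8 ± 16.98 TPM), encode proteins that liver also releases into plasma. Gsn, gelsolin, an actin-severing protein listed among fibroblast markers, measured 17.4 ± 5.96 against 9033 ± 1495 TPM.

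Shared endothelial genes were higher in sWAT and some sinusoidal genes in liver. Of 15 genes shared by endothelia, 14 were higher in sWAT and none in liver. Cdh5, the endothelial cadherin, read 11.4, 10.6, 9.03, 9.06 and 11.8 TPM in liver and 437, 369, 350.02, 389.5 and 239 TPM in sWAT. Pecam1 measured 5.401 ± 1.41 against 188 ± 31.3 TPM. Of 13 genes of liver sinusoids, 5 were higher in liver and 8 passed in neither direction, with 4 under 1 TPM in sWAT. Those higher in liver included the lectin Clec4g (32.4 ± 2.01 against 0.113 ± 0.121 TPM) and the scavenger receptor Stab2 (11.05 ± 1.398 against 0.369 ± 0.154 TPM). The mannose receptor Mrc1 (11.1 ± 1.68 against 30.8 ± 9.699 TPM) and the growth factor receptor Flt4 (5.05 ± 0.612 against 8.28 ± 1.61 TPM) had the higher mean TPM in sWAT and did not pass, and the log2 difference of Flt4 was -0.60 on the TPM scale and 0.41 on the median-ratio scale. In the adipose capillary and lymphatic list 11 of 14 were higher in sWAT and 2 in liver, with 6 under 1 TPM in liver and 2 in sWAT. Prox1 (25.5 ± 5.11 against 0.153 ± 0.0886 TPM), known in lymphatics and also in hepatocytes, and Reln (6.05 ± 1.41 against 0.108 ± 0.0769 TPM) were higher in liver.

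General macrophage genes mostly passed in neither direction. Of 18, with 2 under 1 TPM in liver, 4 were higher in sWAT (22.2%, near the share of all genes, and 3 without sWAT libraries 76, 79 and 83): Lgals3 (4.201 ± 0.907 against 359.6 ± 100.3 TPM), Lyz2 (59.4 ± 6.77 against 654 ± 209 TPM), Cd68 (9.297 ± 3.19 against 108 ± 48.9 TPM) and Itgam (0.459 ± 0.156 against 14.3 ± 5.27 TPM). The median of the list lay -1.08 from the median gene. Of 10 marker genes of Kupffer cells, the resident macrophages of liver, 4 were higher in liver and none in sWAT, with 3 under 1 TPM in sWAT. Clec4f, a lectin of these cells, read 61.2, 57.3, 34.4, 43.8 and 63.6 TPM in liver and 0, 0.0901, 0, 0 and 0 TPM in sWAT. Cd5l and Vsig4 measured 51.7 ± 12.5 against 0.249 ± 0.213 TPM and 19.2 ± 4.02 against 0.877 ± 0.622 TPM, and Slc40a1, the iron exporter, 26.97 ± 5.16 against 5.19 ± 1.71 TPM. Against that direction, Folr2, Id3, Cd163 and Nr1h3 stood at 7.64 ± 1.55 against 35.2 ± 15.6 TPM, 31.9 ± 12.2 against 121 ± 22.7 TPM, 4.58 ± 2.38 against 18.2 ± 7.05 TPM and 84.8 ± 6.55 against 122 ± 14.003 TPM, and none of these 4 passed 2-fold on both scales. Markers of lipid-associated macrophages, described in obese fat, were higher in sWAT in 10 of 14, with 5 under 1 TPM in liver. Gpnmb read 0.353, 0.0897, 0.508, 0.0743 and 0.8105 TPM in liver and 28.7, 52.7, 38.7, 26.4 and 80.9 TPM in sWAT, and Ctsk 0.815 ± 0.305 against 121 ± 24.3 TPM. Cd36, Fabp5 and Lpl of that list are also genes of adipocytes or capillaries. Spp1, osteopontin, was higher in liver (47.2 ± 5.31 against 3.56 ± 3.04 TPM). Among lymphocyte genes, 8 of 20 passed the filter, 4 of them under 1 TPM in liver, and of the 8 only Ighm, the heavy chain of immunoglobulin M, was higher in sWAT. It read 9.85, 11.6, 5.26, 50.2 and 13.996 TPM in liver and 1601, 1662, 1657, 1929.8 and 2025 TPM in sWAT, whereas Igkc, the kappa light chain, named after its values were seen, read 14.04, 12.5, 13.2, 65.2 and 19.8 TPM in liver and 57.7, 25.5, 12.1, 26.3 and 45.6 TPM in sWAT and Cd79b, a subunit of the B cell receptor, 0.5101 ± 0.563 against 1.61 ± 0.811 TPM.

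Of the marker lists of other tissues and cells, few skeletal muscle and skin genes passed the filter. Of 22 skeletal muscle genes, 6 passed it, and 5 were higher in sWAT, the same number being under 1 TPM in liver, with Acta1, skeletal actin, at 17.1, 23.6, 41.3, 33.2 and 60.3 TPM there. Of 19 skin and mammary genes, 6 passed, with 4 under 1 TPM in sWAT and 1 in liver, 1 was higher in sWAT, and the 4 that were higher in liver, Krt8, Krt18, Perp and Dsp, are also expressed by hepatocytes and other simple epithelia. Krt8 measured 276 ± 11.3 against 0.273 ± 0.437 TPM, and the list summed to between 617 and 649 TPM in liver. Of 12 stellate cell genes 7 were higher in liver and 2, Rgs5 (17.03 ± 3.94 against 335 ± 68.5 TPM) and Des (2.47 ± 0.854 against 16.96 ± 1.93 TPM), in sWAT, with 7 under 1 TPM in sWAT, among them Colec10, listed at 0 in sWAT (10.9 ± 2.501 TPM in liver), and Lrat, which stores vitamin A (7.91 ± 3.31 against 0.0166 ± 0.0372 TPM). Of 18 brown and beige genes tested, 8 were higher in sWAT and 3, Ppara, Elovl3 and Slc27a2, in liver, with 7 under 1 TPM in liver and 1 in sWAT, and Ucp1 did not pass the filter.

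Ribosomal protein genes lay near the median gene, and other housekeeping lists above it. None of 69 ribosomal protein genes passed 2-fold on both scales, and their median log2 difference was -0.95, or 0.10 relative to the median gene. None of 54 nuclear genes of the respiratory chain passed either, with a median of -0.36, or 0.68 relative to the median gene, and 33 of them were called in opposite directions on the 2 scales. In the tricarboxylic acid cycle list 4 of 30 were higher in sWAT (13.3%, against 18.3% of all genes) and 2 in liver (6.67%, against 9.25%), with 2 under 1 TPM in liver. Those in sWAT included Idh3a, a subunit of the NAD-dependent isocitrate dehydrogenase, which read 14.2, 13.5, 12.4, 14.8 and 10.6 TPM in liver and 206, 183, 212, 214 and 222 TPM in sWAT. Pdk4, a kinase that blocks pyruvate entry, also was (6.499 ± 2.93 against 127 ± 78.01 TPM), and it held 59.1 ± 14.2% of its family in sWAT, where Pdk2 led in liver (70.96 ± 4.76%). Suclg2, a subunit of succinyl-CoA ligase, was higher in liver (176 ± 9.28 against 34.97 ± 1.44 TPM). Of 36 endoplasmic reticulum genes, whose median lay 1.28 above the median gene, 6 were higher in liver and none in sWAT, including Sdf2l1 (106 ± 37.98 against 28.6 ± 10.04 TPM) and Pdia4 (355 ± 78.1 against 98.9 ± 15.3 TPM), which fold secreted proteins. Of 19 clock genes, 2 were higher in liver (10.5%, near the share of all genes), among them Hlf (16.5 ± 0.975 against 3.52 ± 1.04 TPM), and none in sWAT, with 1 under 1 TPM in liver. Transcripts of the mitochondrial genome held 12.8 ± 0.154% of TPM in liver and 13.3 ± 1.51% in sWAT, and the groups overlapped (exact two-sided permutation p 0.476). Leaving out libraries gave differences, liver minus sWAT, from -1.06 to -0.0666 percentage points. The most extreme of these omissions was that of sWAT library 76, with an exact two-sided permutation p of 0.0317. That p was not adjusted for the number of omissions.

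Some abundant genes had nearly equal TPM. In 894 genes the 95% interval of the log2 difference lay within 0.5 of 0, which is about 1 above the median gene. The 10 most abundant outside ribosomal and mitochondrial genes were Eef1a1, Hspa8, Gapdh, Tpt1, Atp5a1, Ldha, Slc25a5, Mdh1, Serpinf1 and Etfa. Gapdh, a glycolytic enzyme often used as a reference, read 769, 987, 908, 886 and 909 TPM in liver and 721, 817, 678, 744 and 769 TPM in sWAT. Its log2 difference was 0.26 on the TPM scale and 1.44 on the median-ratio scale. Hspa8, a chaperone, stood at 1165 ± 295 against 1228 ± 179.9 TPM, and Ldha, lactate dehydrogenase A, at 617 ± 47.1 against 691 ± 54.7 TPM.

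Libraries of a tissue agreed closely, with Pearson correlations of log2(TPM + 1) from 0.990 to 0.994 within a tissue and from 0.802 to 0.827 between tissues. The median SD of log2 values was 0.120 in liver and 0.159 in sWAT among genes of at least 10 TPM there. The most variable genes in liver included the metallothioneins Mt1 and Mt2, which bind zinc. Mt2 read 4.56, 24.9, 26.4, 13.7 and 607 TPM in liver and 61.7, 195, 2097, 100.01 and 314 TPM in sWAT, with the highest liver value in library 83 and the highest sWAT value in library 79. Mt1 read 7.69, 45.98, 38.1, 25.8 and 356 TPM in liver and 70.9, 168, 994, 103 and 198 TPM in sWAT and was highest in the same 2 libraries. Egr1 and Fos, immediate early genes, were highest in libraries 76 and 80 of both tissues. Egr1 read 5.64, 36.3, 4.14, 149 and 27.5 TPM in liver and 31.8, 183, 74.1, 183 and 18.8 TPM in sWAT, and Fos 0.896, 15.2, 1.53, 33.2 and 4.42 TPM in liver and 19.4, 132, 37.1, 157 and 19.999 TPM in sWAT. Hsd3b5, a steroid enzyme known for higher levels in male mouse liver, ranged from 14.8 to 228 TPM over the liver libraries, and Onecut1, a hepatocyte factor, from 4.28 to 69.7 TPM. In sWAT the most variable genes included the traces of Apoa2, Apoa1, Serpina1c, Ttr and Fabp1 described above. Ptx3, a pentraxin, was listed at 0 in liver and read 1.72, 3.99, 68.3, 4.39 and 4.84 TPM in sWAT, highest in library 79, and Fosb read 5.85, 28.3, 107, 46.8 and 1.26 TPM there, also highest in library 79.

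**Figure D5:**
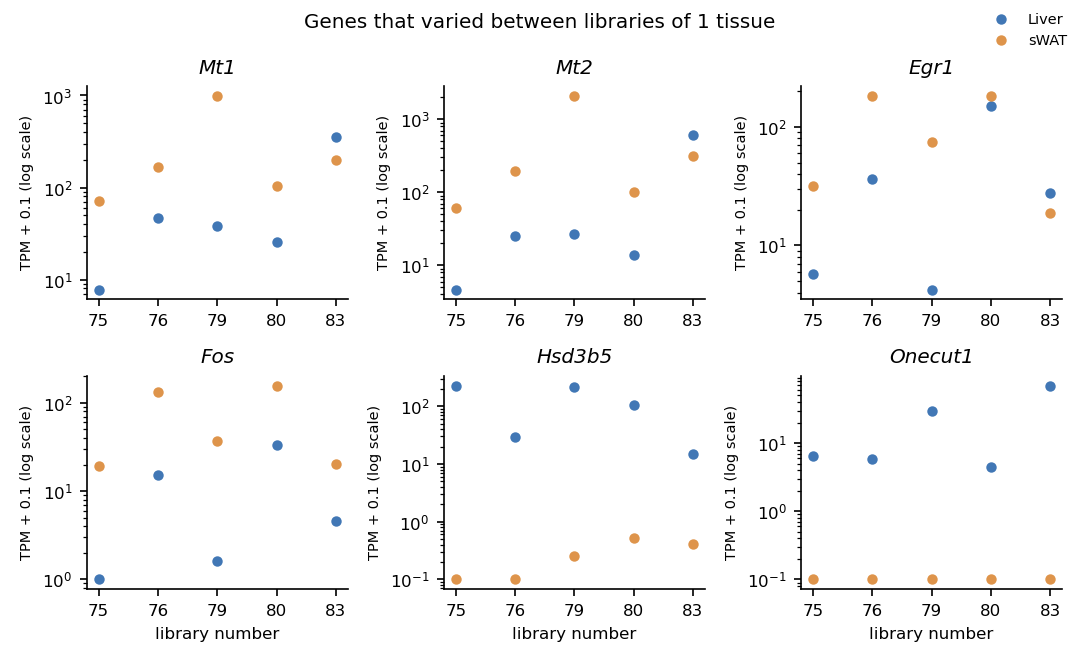
TPM + 0.1 (log axis) of 6 genes in each liver (blue) and sWAT (orange) library, by library number. Mt1 and Mt2 are highest in liver library 83 and sWAT library 79, Egr1 and Fos are highest in libraries 76 and 80 of both tissues, and Onecut1 is listed at 0 in all sWAT libraries.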

How the data were processed

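Poly(A)-selected, strand-specific NEB libraries were made, per the labels' protocols. Reads went through STAR and RSEM on GRCm39, per the submitters' processing notes, with versions and annotation release not given in the sources used here. For 55357 genes in 30 libraries, all mapped to the labels, the authors deposited TPM, with each column summing to 1000000. TPM keeps no depth, so no counting interval is given. Gene symbols and GRCm39 coordinates are those deposited.

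The model for log2 of TPM with a pseudocount of 1 was limma 3.58.1 in R 4.3.3 (trended moderated test, and its test against a 2-fold threshold, with Benjamini-Hochberg adjustment), run on genes that reached 1 TPM in 5 or more of the 10 libraries and tested on simulated data. Family shares and library measures were compared by exact two-sided permutation in Python 3.11.15. Alternatives covered the pseudocount, scaling, mitochondrial genes, filter, variance trend, replicate block and omitted libraries.

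Named genes were the 15 largest differences in each direction, members of 42 protein families, up to 6 called members of each list and up to 4 called against its majority, the 10 most abundant genes of near-equal level, and the 8 most variable genes in each tissue. Outside this rule, Fasn, Pck1, Igkc and Hoxb4 were named after their values were seen, and Cyp2e1 is a hepatocyte marker. The members, lists and families were chosen with earlier results of these data known. Where a symbol had 2 identifiers, the more abundant was used. Promoter windows came from RefSeq (GRCm38.p6) and matched 10427 of the 13751 tested genes by symbol. Several genes within this rule were left out of the text and of the family plot.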

Additional observations from a re-analysis of the deposited data

Results flagged for a closer look

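In 17 of 395 groups of 5 values of the named genes, a single library lay apart on log2(TPM + 1), the scale of the tests, by Dixon's ratio at its 95% critical value for 5 samples. Chance flags about 1 in 20 groups, which here is 19.75 groups. On TPM itself 28 groups did, these 17 and 11 more: Mt1 and Mt2 in both tissues, Cebpa, Egr1, Ighm, Pck1 and Stab2 in liver, and Cfd and Msmo1 in sWAT.

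The sWAT and liver libraries numbered 83, which are separate libraries, together held 6 of the 17. In sWAT the adrenergic receptor Adrb3 read 211 TPM, against 55.02 to 80.5 in the other 4. The lipase inhibitor Angptl4 read 959.8 TPM, against 649 to 719.8 in the other 4. The endothelial gene Pecam1 was low there, at 134 TPM, against 192 to 211 in the other 4. In liver the fibrinogen chains Fga and Fgg were high together, Fga at 4522 TPM, against 2540.4 to 2862 in the other 4 and Fgg at 5106 TPM, against 2836 to 3105 in the other 4. Lbp was high in the same liver library, at 63.99 TPM, against 35.8 to 39.1 in the other 4. This was also the liver library with the highest Mt1, Mt2 and Onecut1.

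Those numbered 79 together held 5. In sWAT, Ptx3 read 68.3 TPM, against 1.72 to 4.84 in the other 4, and the insulin receptor substrate Irs1 7.54 TPM, against 13.9 to 15.98 in the other 4. In liver, Dgat2 read 470.2 TPM, against 374 to 389 in the other 4. Gys2 read 157 TPM, against 97.4 to 112 in the other 4. Dsp, a desmosomal protein, read 13.98 TPM, against 20.8 to 21.8 in the other 4.

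Those numbered 75 together held 3. In liver, the enolase Eno1 read 207 TPM, against 243 to 251 in the other 4, and Cyp4b1 read 12.99 TPM, against 9.11 to 9.87 in the other 4. In sWAT, Pygb read 145 TPM, against 127 to 130.2 in the other 4. In liver library 80, Igkc read 65.2 TPM, against 12.5 to 19.8 in the other 4 and Mvk 25.4 TPM, against 19.8 to 21.2 in the other 4. In sWAT library 76, Acacb read 17.8 TPM, against 26.2 to 29.2 in the other 4.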

How the results depend on the processing

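Scaling and the filter both moved the counts. On the TPM scale 2078 genes by adjusted p and 1272 over 2-fold were higher in liver, and 10490 and 5689 in sWAT. With median-ratio scaling these became 5449, 2119, 5672 and 2519, and the sWAT counts on both scales together were also 5672 and 2519. Among genes with a mean of at least 1 TPM in each tissue, which are fewer, 1297 and 577 were higher in liver and 3779 over 2-fold higher in sWAT. A pseudocount of 0.1 TPM, no mitochondrial genes, no filter, a mean of at least 5 TPM and no variance trend left these 4 counts within 1.5 times. Leaving out libraries gave 2021 to 2101 and 1241 to 1277 in liver, and 10292 to 10533 and 5279 to 5796 in sWAT.

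Of the named genes, 23 had a log2 difference below 0 on the TPM scale and above 0 with median-ratio scaling, and none of them passed 2-fold on both scales: Acacb (1.01), Acadl (0.0403), Atp5a1 (0.982), Cebpa (0.124), Eef1a1 (0.935), Eno1 (0.406), Etfa (0.9503), Flt4 (0.415), Gpt (0.817), Hmgcs1 (0.617), Hp (0.661), Hspa8 (1.07), Igkc (0.587), Irs1 (0.462), Ldha (1.02), Lpin1 (0.316), Mdh1 (1.04), Mvk (0.0321), Nr1h3 (0.653), Plin2 (0.336), Serpina3n (0.347), Slc25a5 (1.04) and Tpt1 (0.8701). Leaving out libraries gave -0.307 to 0.129 for Acacb, -0.203 to 0.0554 for Hspa8 and -0.0313 to 0.103 for Serpinf1, and 0.0157 for Hspa8 without sWAT 76, 79 and 83. In percentage points of a family, it gave -0.487 to 3.0003 for Pfkl and -1.66 to 4.85 for Gpat4, and for mitochondrial transcripts -1.06 to -0.0666 percentage points of TPM. The cause was not tested. Of 5780 recomputed values of the 245 named genes, 30 changed direction and 54 lost their adjusted p, with Mt1, Mt2 and Orm1 losing it without several single libraries.

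With the replicate number as a block, 2086 and 10485 genes had a limma adjusted p under 0.05 in liver and sWAT, and 1274 and 5615 were over 2-fold higher. Deviations of libraries with the same number correlated at 0.0854 (75), -0.00629 (76), 0.00739 (79), 0.149 (80) and 0.0148 (83), and only 75 and 80 correlated best with their own number. These correlations cannot show whether libraries of the same number share a mouse, which the labels do not state. The main fit and the permutation tests did not use the numbers as pairs. Without sWAT 76, 79 and 83, 10 instead of 14 cholesterol synthesis genes were higher in liver on both scales. What depth limits is unknown, since TPM keeps none.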
